A study of Mus musculus with 2 samples.

Results

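Transcripts of 10 transcription factor genes were followed from mouse embryonic fibroblasts (MEF) into induced myogenic progenitor cells (iMPC): the Jun genes Jun, Junb and Jund, the Fos genes Fosb, Fosl1 and Fosl2, and Atf3, Runx1, Cebpb and Egr1. The genes were taken by symbol as a fixed set of factors regarded as guarding fibroblast identity. All 10 were found among the 26100 genes listed in both libraries. RNA of single cells was read from transcript ends in droplets (10x Genomics), and a molecular barcode (unique molecular identifier, UMI) lets each captured molecule be counted once. Fibroblasts kept in MEF medium gave the MEF library. The iMPC library came from a stable clone, per the series' design text, that was derived from such fibroblasts with MyoD and a treatment abbreviated F/R/C in the labels, and was cultured in medium with F/R/C. Both carried the reporter Tg:Pax7-nGFP on a C57BL6;DBA2 background. Age is not given in the sources used here, and a clone samples a single conversion event of the many that such a culture could hold.

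The proteins of the Jun and Fos genes pair through leucine zippers to form AP-1, which binds short DNA sites near genes for growth, matrix turnover and inflammation. Atf3 encodes a related zipper protein that is induced by stress and can pair with Jun proteins. Runx1, Cebpb and Egr1 encode factors of other families that bind many enhancers together with AP-1 in connective tissue cells. In muscle biology, Jun and Fos proteins are known for opposing MyoD, Cebpb for holding back differentiation of myoblasts, and Runx1 for supporting their proliferation. Several of these genes, among them Jun, Junb, Fosb, Atf3 and Egr1, are immediate-early genes: they can be switched on within the time needed to detach cells with trypsin, which was used for both cultures per the labels' protocols.

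MEF cells were all listed barcodes with at most 20% mitochondrial UMIs, which gave 6043 cells with a median of 18929 UMIs. iMPC cells needed at least 8036 UMIs and at most 20% mitochondrial UMIs, which gave 9349 cells with a median of 20846 UMIs. Among the iMPC cells 4 groups were set by marker counts. The Pax7 group held 2180 cells with a UMI of the stem cell gene Pax7 and none of the differentiation gene Myog. The Myog group held 1724 cells with at least 5 Myog UMIs and at most 1 UMI of the creatine kinase gene Ckm, which marks muscle fibres. The Ckm group held 1037 cells with at least 5 Ckm UMIs and was the deepest, with a median of 42148 UMIs per cell. The Dcn group held 553 cells with at least 5 UMIs of decorin, a matrix proteoglycan of fibroblasts. The Dcn group shared 110 cells with the Pax7 group, 18 with the Myog group and 18 with the Ckm group, while 4001 iMPC cells met none of the rules. Against 8 fibroblast markers other than Dcn, the Dcn group was like MEF cells only in part. In CPM (UMIs of a gene scaled to a group total of 1000000), the 8 summed to 6459 in MEF cells, 3929 in the Dcn group, 1296 in the Pax7 group, 289 in the Myog group and 133 in the Ckm group. In the Dcn group 2 of the 8 were more than 2-fold above MEF, among them the collagen gene Col3a1 (2174 against 711 CPM), and 4 were more than 2-fold below, among them the collagen gene Col1a1 (508 against 2289 CPM). The 6 myocyte markers summed to 43408 CPM in the Ckm group, 12454 in the Myog group, 3853 in the Dcn group, 818 in the Pax7 group and 95.8 in MEF cells. Their part in the levels of the Dcn group was not tested. The 5 smooth muscle markers, which activated fibroblasts also express, summed to 10567 CPM in MEF cells and to 430 to 881 CPM in the 4 iMPC groups, and all 5 were more than 2-fold lower in each. In the Dcn group 1 marker each of glia, adipocytes, chondrocytes and neurons was more than 2-fold above MEF cells: S100b (11.4 against 0.534 CPM), Fabp4 (19.2 against 4.497), Sox9 (78.3 against 36.5) and Snap25 (20.1 against 0.0423), while Sox10, Adipoq, Col2a1 and Elavl4 were at 0 there. Tubb3 (41.2 against 25.3) and Stmn2 (38.3 against 23.3) were above MEF by less than 2-fold. The neuron markers were not particular to the Dcn group. They summed to 249 CPM in the Pax7 group, 99.6 in the Dcn group and 49.2 in MEF cells, and 2 of 2 tested were more than 2-fold higher in the Pax7 group. Chondrocyte markers summed to 78.4 CPM in the Dcn group, 69.1 in the Pax7 group and 36.6 in MEF cells. Immune markers summed to at most 3.39 CPM in any group, with Adgre1, C1qa and Tyrobp at 0 UMIs in all, and endothelial markers to at most 0.575 CPM. The part of these other markers in the results was not tested.

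Since each culture was a single library, the comparisons below carry no replicate check and no test. Intervals are exact, at 95%, and cover counting error only. Cells were not treated as replicates. Levels are UMIs summed over the cells of a group and divided by the group's total, and since each UMI stands for a transcript end they were not divided by gene length. A gene was counted as higher or lower past a 2-fold ratio of CPM, given at least 10 CPM on the higher side.

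The promoters of Jun, Atf3 and Runx1 are shown first, since these 3 genes differed most between the cultures. Egr1 was left out of the promoter search by its chromosome. Promoter windows of 8 of the 10 genes, all but Fosl1 and Egr1, were taken from the RefSeq table (GRCm38.p6). Each ran from 250 bases before to 50 after a start site. They were searched on both strands for the AP-1 site TGAGTCA, for the related cAMP site TGACGTCA, and for TGACNTCA and TNACGTCA, which each hold the cAMP site as a special case. The last 2 motifs were chosen after these windows had been read. Capitals mark a match, and the windows are Jun at chr4:95052173-95052472, Atf3 at chr1:191183284-191183583 and the outer of 2 Runx1 windows at chr16:92826025-92826324, all on the minus strand and written 5′ to 3′.
Jun: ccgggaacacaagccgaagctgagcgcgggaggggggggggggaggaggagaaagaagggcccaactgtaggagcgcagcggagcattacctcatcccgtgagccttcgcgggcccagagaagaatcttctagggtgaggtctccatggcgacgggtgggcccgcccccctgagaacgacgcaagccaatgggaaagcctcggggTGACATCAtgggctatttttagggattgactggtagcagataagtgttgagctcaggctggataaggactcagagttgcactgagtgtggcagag
Atf3: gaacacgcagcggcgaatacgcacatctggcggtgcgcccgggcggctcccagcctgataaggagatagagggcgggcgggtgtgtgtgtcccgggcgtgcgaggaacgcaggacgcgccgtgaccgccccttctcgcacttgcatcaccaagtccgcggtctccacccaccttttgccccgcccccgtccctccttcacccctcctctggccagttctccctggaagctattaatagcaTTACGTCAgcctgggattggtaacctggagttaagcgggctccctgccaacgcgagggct
Runx1: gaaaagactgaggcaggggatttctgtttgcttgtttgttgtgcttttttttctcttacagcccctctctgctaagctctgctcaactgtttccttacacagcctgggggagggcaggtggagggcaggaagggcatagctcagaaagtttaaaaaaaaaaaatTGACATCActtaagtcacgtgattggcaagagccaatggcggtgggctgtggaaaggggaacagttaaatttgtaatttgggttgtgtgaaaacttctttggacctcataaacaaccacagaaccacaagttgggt

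The same letters TGACATCA began 45 bases before the start site of Jun and 86 bases before that of the outer Runx1 window. TTACGTCA began 10 bases before the start site of Atf3. The windows of Junb, Jund, Fosb, Fosl2 and Cebpb and the inner Runx1 window held no match, and none of the 9 windows held TGAGTCA. Of 32544 promoter windows of this length, 5.19% held TGAGTCA, 1.8% TGACGTCA, 8.62% TGACNTCA and 2.95% TNACGTCA. A match is a description of the sequence only, and counts of transcript ends cannot tell which Runx1 start site was used.

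Between the whole cultures, the 10 genes were higher in iMPC more often than lower. Past 2-fold, 5 of 10 were higher in iMPC (Jun, Fosl1, Atf3, Runx1 and Egr1), where 14.8% of all tested genes were, and 0 of 10 were lower, where 21.5% were. The median log2 ratio of the 10 genes was 1.14, against -0.17 over the 8605 genes tested. This holds for the culture as a whole, and single cell groups differed from it. Of the 10, 7 had intervals wholly above equality, Jund and Cebpb lay below MEF by less than 2-fold, and the interval of Fosb spanned equality. The share of all genes with such intervals is not given here. Scaling the libraries by the median gene ratio would add 0.14 to each of these log2 ratios, which are given without it.

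**Figure D1:**
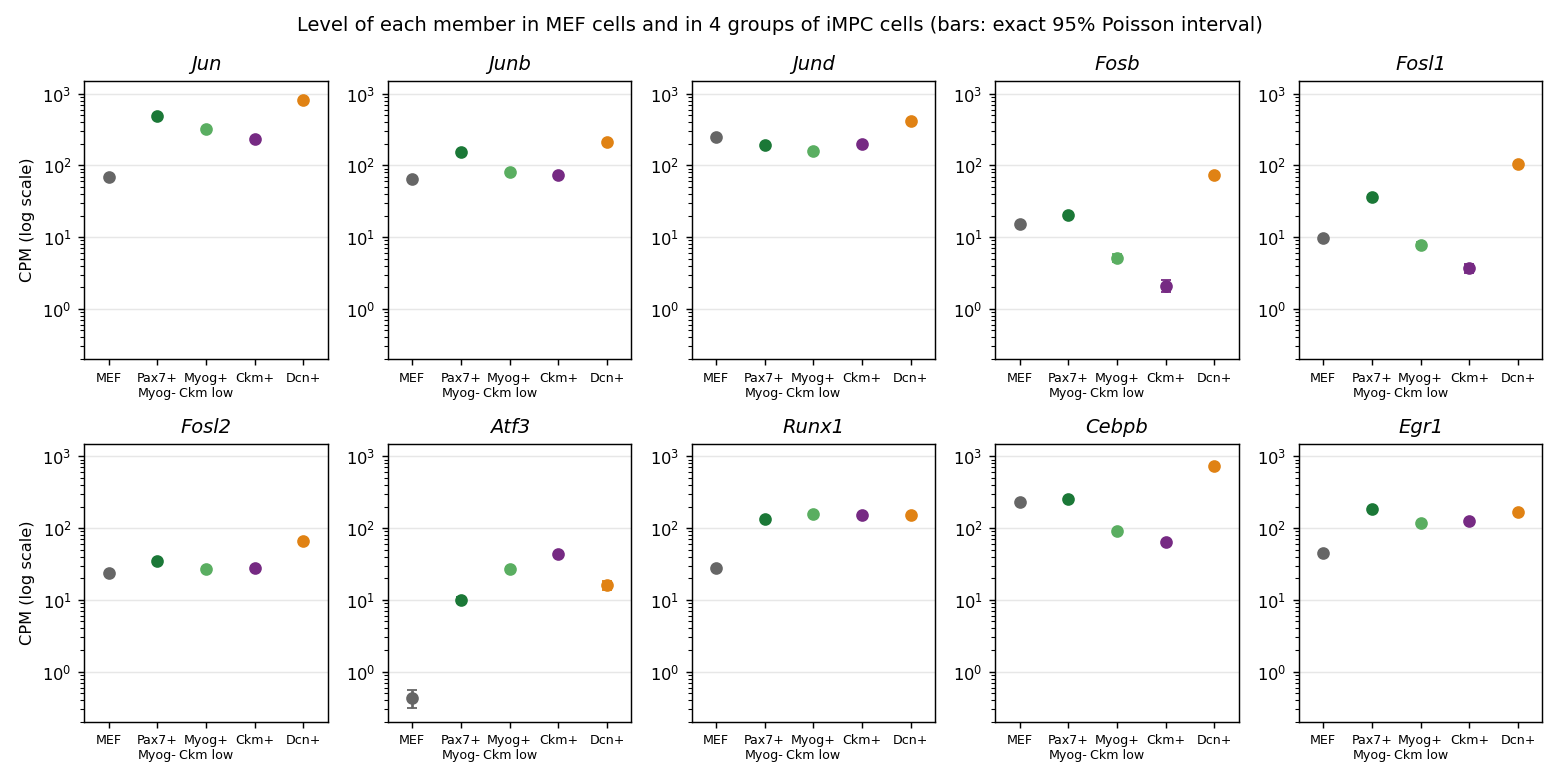
CPM (log axis) of each gene in MEF cells and in the 4 iMPC cell groups, with exact 95% Poisson intervals, which are often smaller than the points. Jun, Junb, Fosl2, Atf3, Runx1 and Egr1 lie above MEF in all 4 groups, Junb and Fosl2 by less than 2-fold in some. Fosb, Fosl1 and Cebpb are highest in the Dcn group and lowest in the Ckm group.

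Jun (ENSMUSG00000052684, chromosome 4, 95049034 to 95052222) encodes the AP-1 subunit with the strongest activating capacity among its close relatives. It stood at 69.9 CPM in MEF cells (68.4 to 71.4) and at 402 CPM in all iMPC cells (399.9 to 405), a log2 ratio of 2.53 (2.49 to 2.56). Among iMPC groups it was at 811 CPM in the Dcn group, 494 in the Pax7 group, 322 in the Myog group and 237 in the Ckm group. No 2 of these intervals overlapped, and the lowest iMPC group was still 3.39-fold above MEF. Junb (ENSMUSG00000052837, chromosome 8, 84974484 to 84978718), a weaker activator that can restrain Jun, stood at 64.1 CPM in MEF cells and 121 CPM in iMPC cells. It reached 213 CPM in the Dcn group and 156 in the Pax7 group, but 80.9 in the Myog group and 73.0 in the Ckm group, close to MEF. Jund (ENSMUSG00000071076, chromosome 8, 70698949 to 70700616), the Jun gene that is expressed most steadily in resting cells, was the exception, at 250 CPM in MEF cells and 201 CPM in iMPC cells. Its levels in the Pax7 group (195 CPM, 191 to 199) and the Ckm group (196 CPM, 192 to 200.03) could not be separated, and only the Dcn group, at 421 CPM, lay above MEF.

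The make-up of the Jun family therefore differed between the cultures. Jund took 65.1% of the UMIs of the 3 Jun genes in MEF cells (64.6% to 65.5%) and 27.8% in iMPC cells (27.6% to 28.0%). Jun took 18.2% in MEF cells and 55.6% in iMPC cells, and 46.8% to 58.5% in the 4 iMPC groups. Junb varied least, from 14.4% to 18.4% over the 5 groups. The Dcn group, the closest to fibroblasts in its markers, had Jun at 56.1% of the family, nearer to the Pax7 group (58.5%) than to MEF cells. The sum of the 3 Jun genes was 384 CPM in MEF cells, 845 in the Pax7 group, 561 in the Myog group, 506 in the Ckm group and 1446 in the Dcn group.

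**Figure D2:**
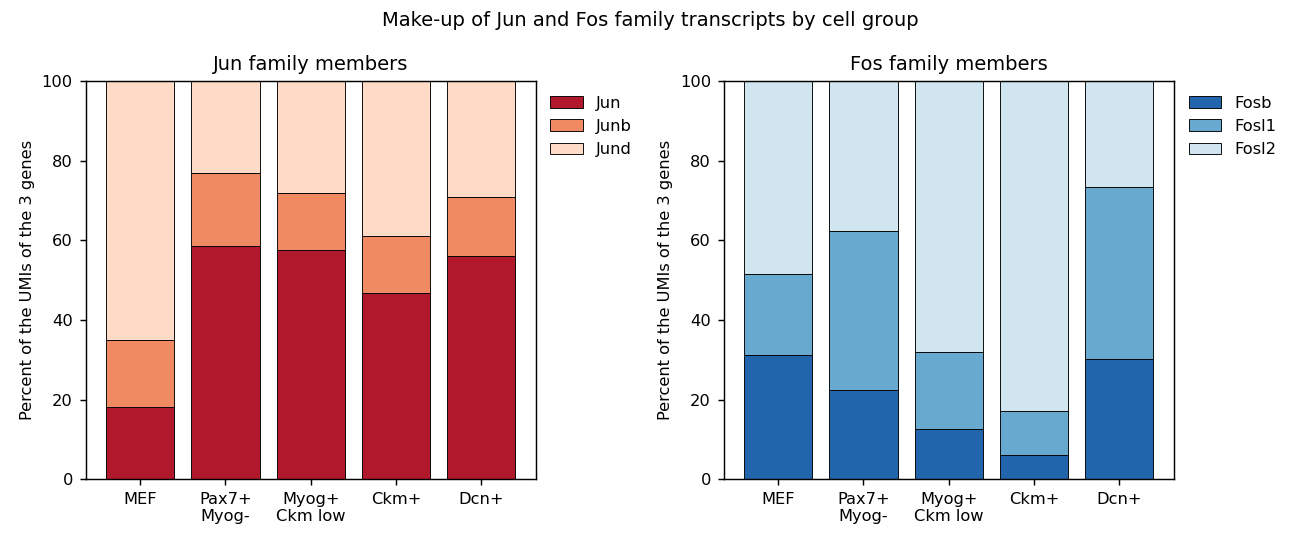
Percent of the UMIs of the 3 Jun genes (left) and of the 3 Fos genes among the 10 (right) that each gene took in MEF cells and in each iMPC group. Jund is the largest part in MEF cells only, and Fosl2 grows to 82.9% in the Ckm group.

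The Fos genes, whose proteins bind DNA only with a partner such as Jun, were all highest in the Dcn group. Fosb (ENSMUSG00000003545, chromosome 7, 19302696 to 19310051), an immediate-early gene, stood at 15.01 CPM in MEF cells and 15.7 CPM in all iMPC cells, a log2 ratio of 0.06 (-0.02 to 0.15) whose sign changed between alternatives, from -0.29 to 0.56. Within iMPC it ran from 74.0 CPM in the Dcn group over 20.5 in the Pax7 group and 5.09 in the Myog group to 2.12 in the Ckm group, from 103 UMIs there. Fosl1 (ENSMUSG00000024912, chromosome 19, 5447547 to 5455946), the Fra-1 gene, is known for its link to migration and matrix turnover. It stood at 9.82 CPM in MEF cells and 25.4 in iMPC cells, with 106 CPM in the Dcn group, 36.4 in the Pax7 group, 7.77 in the Myog group and 3.70 in the Ckm group. Fosl2 (ENSMUSG00000029135, chromosome 5, 32135801 to 32157842), the Fra-2 gene, varied less: 23.4 CPM in MEF cells, 65.1 in the Dcn group, 34.5 in the Pax7 group, 28.2 in the Ckm group and 27.3 in the Myog group. The last 2 intervals overlapped.

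Fosl2 took 48.5% of the UMIs of the 3 Fos genes in MEF cells and 82.9% (81.0% to 84.7%) in the Ckm group, where Fosl1 took 10.9% and Fosb 6.23%. In the Dcn group Fosl1 was the largest part, at 43.3% (41.5% to 45.1%). Fos itself, the founding gene of the family, stood at 21.3 CPM in MEF cells, 81.0 in the Pax7 group, 47.8 in the Myog group, 82.8 in the Ckm group and 99.8 in the Dcn group. It thus did not follow Fosb and Fosl1 downward into the Ckm group.

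Atf3 (ENSMUSG00000026628, chromosome 1, 191170296 to 191218039) had the largest difference between the cultures. MEF cells held 50 Atf3 UMIs in 6043 cells, 0.42 CPM (0.31 to 0.56), and iMPC cells held 5575 UMIs, 24.0 CPM (23.3 to 24.6), a log2 ratio of 5.82 (5.42 to 6.25). The alternatives ranged from 5.21 to 6.44. Its order within iMPC differed from that of Fosb and Fosl1, with the Ckm and Myog groups on top: 43.6 CPM in the Ckm group, 26.9 in the Myog group, 15.9 in the Dcn group and 10.1 in the Pax7 group, with no overlap between these intervals. Runx1 (ENSMUSG00000022952, chromosome 16, 92601466 to 92826149), whose protein binds DNA with the partner Cbfb, was raised by about the same amount in all iMPC groups. It stood at 27.8 CPM in MEF cells (26.9 to 28.8), 157 in the Myog group, 152 in the Dcn group, 150 in the Ckm group and 133 in the Pax7 group. The Dcn interval overlapped those of the Myog and Ckm groups.

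Cebpb (ENSMUSG00000056501, chromosome 2, 167688915 to 167690418), known for roles in adipose and inflammatory gene programmes, stood at 231 CPM in MEF cells and 190 CPM in iMPC cells. That small difference had a log2 ratio of -0.28 and turned to 0.09 when CPM was computed cell by cell and then averaged. The groups behind it were far apart: 731 CPM in the Dcn group, 255 in the Pax7 group, 91.0 in the Myog group and 63.9 in the Ckm group. Egr1 (ENSMUSG00000038418), a zinc finger factor induced by growth signals, stood at 45.6 CPM in MEF cells, 187 in the Pax7 group, 168 in the Dcn group, 127 in the Ckm group and 118 in the Myog group. All 4 iMPC groups lay 2.59-fold to 4.11-fold above MEF. GENCODE M21 annotates a gene on the opposite strand over 7 of the 10 genes, among them Prdx2 over Junb, Ccdc85b over Fosl1 and Tmem189 over Cebpb. The sources used here do not state how strand was counted.

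Each group was then set against MEF cells. In the Dcn group 9 of 10 genes were higher past 2-fold (13.0% of all tested genes) and 0 were lower (12.9%), and the tenth, Jund, had a log2 ratio of 0.75. In the Pax7 group 6 of 10 were higher (14.8%) and 0 lower (19.4%), with Junb joining the 5 genes that were higher in the whole culture. Of these, Atf3 was counted at 10.1 CPM, with an interval of 9.17 to 11.07 that spans the 10 CPM minimum. In the Myog group 4 were higher (15.9%) and 2 lower (26.9%), and in the Ckm group likewise 4 were higher (13.9%) and 2 lower (35.2%). In both groups the genes above MEF were Jun, Atf3, Runx1 and Egr1 and those below were Fosb and Cebpb. Cebpb was 3.62-fold and Fosb 7.09-fold lower in the Ckm group than in MEF cells. Fosl1, at log2 -1.41 there, did not reach 10 CPM on either side. These 4 comparisons share the MEF cells, so their agreement is not independent.

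**Figure D3:**
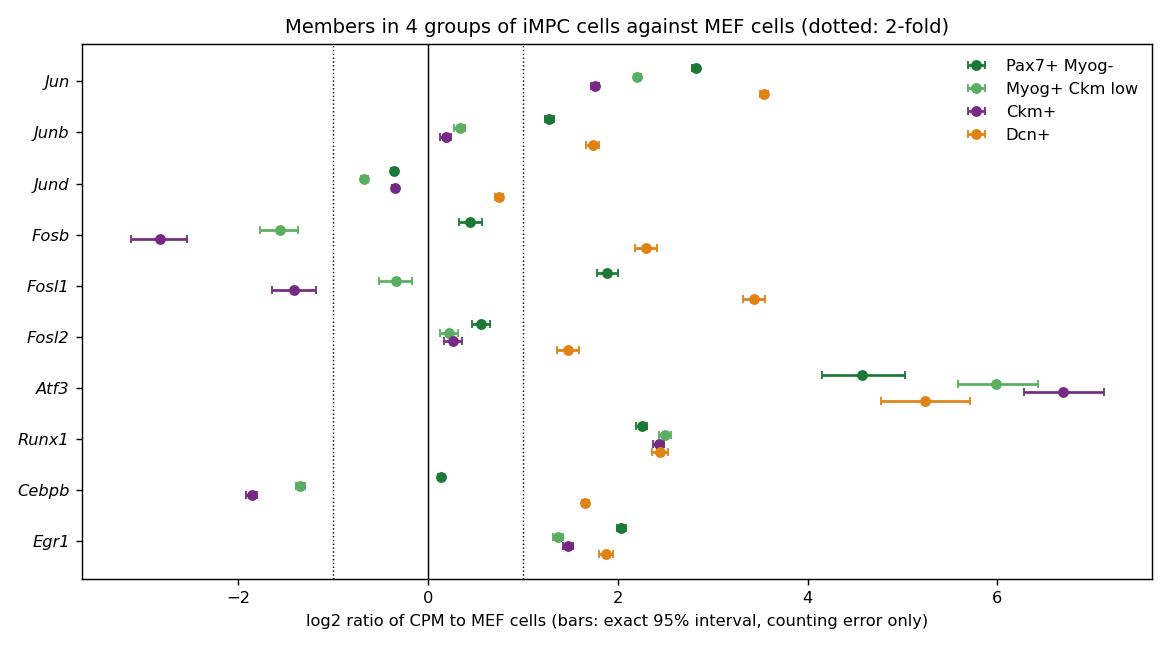
Log2 ratio of CPM to MEF cells for each gene in the 4 iMPC cell groups, with exact 95% intervals and dotted lines at 2-fold. The points of Runx1 lie together between 2.25 and 2.50, while those of Fosb spread from -2.83 to 2.30.

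Within the iMPC library, the comparison of differentiating with Pax7-positive cells rests on cells captured and sequenced together. The Myog group had 3 genes lower than the Pax7 group past 2-fold (11.5% of all tested genes), Fosb, Fosl1 and Cebpb, and 1 higher, Atf3 (7.02%). In the Ckm group 5 were lower (30.2%), with Jun and Junb added at log2 ratios of -1.06 and -1.09, and Atf3 alone was higher (12.2%). After scaling to the median gene ratio 3 were lower, not 5. Against the Pax7 group, the Ckm group was lower 9.83-fold for Fosl1, 9.68-fold for Fosb and 3.999-fold for Cebpb. Free RNA of the culture limits the lowest of these values: barcodes of 1 to 100 UMIs, which held no cell, had Fosb at 9.82 CPM and Fosl1 at 22.6 CPM. With that profile subtracted at 10% of the UMIs, the log2 ratio to MEF of Fosl1 in the Ckm group moved from -1.41 to -2.62 and that of Fosb from -2.83 to -3.57. The Dcn group had 4 genes higher than the Pax7 group (11.0%), Fosb, Fosl1, Cebpb and Jund, and 0 lower (6.77%). Runx1 and Egr1 stayed under 2-fold of the Pax7 group in all 3 of these comparisons, with the largest log2 difference at -0.66 for Egr1 in the Myog group.

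The same genes were followed along the counts of Dcn and Ckm, in bins chosen after the group levels had been seen. From cells without a Dcn UMI over those with 1 to 4 and 5 to 19 to the 243 cells with 20 or more, Cebpb ran from 145 over 378 and 658 to 815 CPM. Fosb ran from 11.2 to 96.0 CPM, Fosl1 from 18.4 to 117, Jund from 183 to 490 and Jun from 372 to 883. Runx1 stayed between 141 and 161 CPM and Egr1 between 155 and 171. Most of the fall along Ckm lay between cells with 0 or 1 Ckm UMI and the 498 cells with 2 to 4: Fosb went from 20.7 to 4.77 CPM, Fosl1 from 33.5 to 7.16 and Cebpb from 237 to 84.4. Atf3 rose over the same step, from 16.5 to 41.4 CPM, and was at 44.3 CPM in the 333 cells with 20 or more. The bin of 0 or 1 Ckm UMI pooled unlike cells, among them the whole Myog group. That group already stood at 5.09 CPM for Fosb, 7.77 for Fosl1 and 91.0 for Cebpb. The step between these bins therefore does not place the fall at the rise of Ckm. The cells with more Ckm UMIs were also deeper, with medians of 19284.5 UMIs in the first and 51997 in the last bin.

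**Figure D4:**
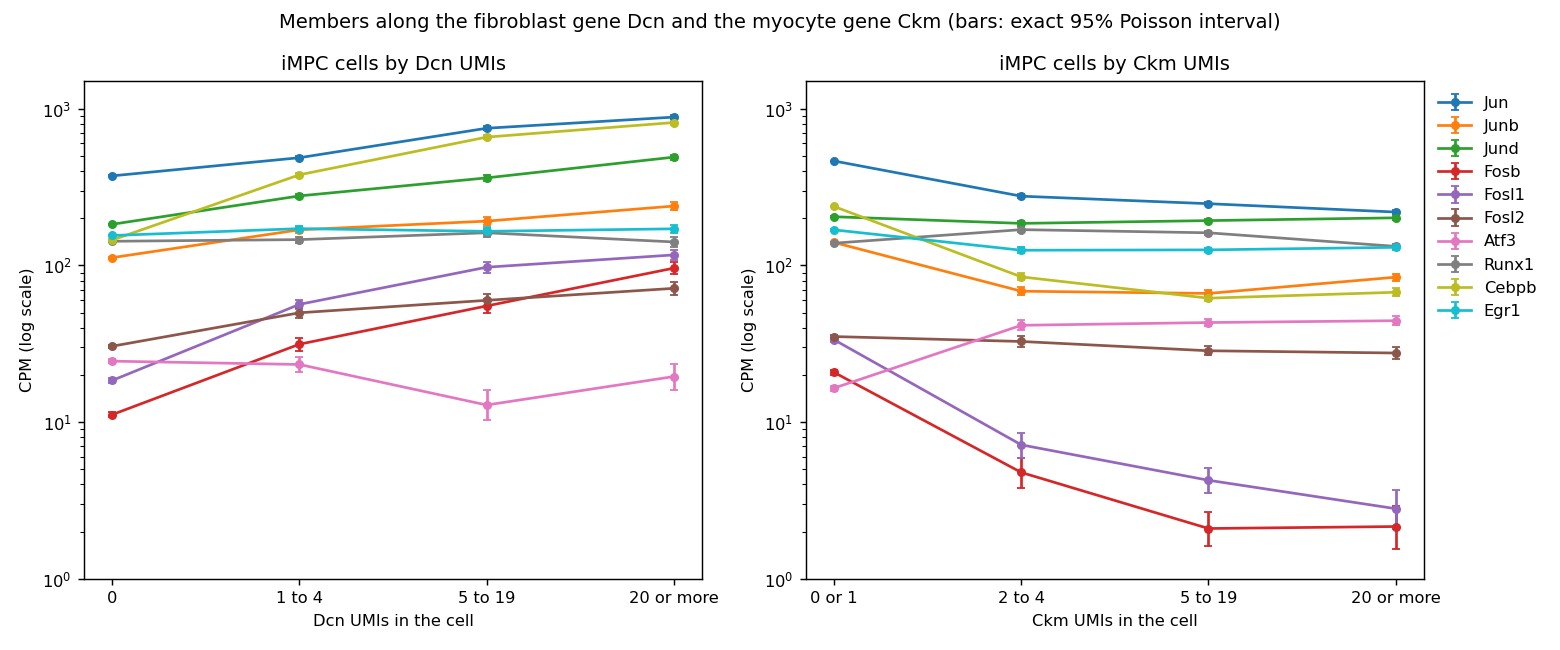
CPM (log axis) of the 10 genes in iMPC cells binned by their Dcn UMIs (left) and Ckm UMIs (right), with exact 95% Poisson intervals. Cebpb, Fosb, Fosl1 and Jund climb with Dcn, and Fosb and Fosl1 drop steeply between 0 or 1 and 2 to 4 Ckm UMIs. The bin of 0 or 1 Ckm UMI pools unlike cells and includes the Myog group.

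Of the 553 Dcn cells 110 met the Pax7 rule, a slightly smaller share than the 23.3% of all iMPC cells that met it. In the 110 cells that met both rules, Cebpb was at 784 CPM and Fosl1 at 119 CPM, against 780 and 112 in the 359 Dcn cells without a Pax7 UMI. Atf3 differed, at 8.31 CPM (5.003 to 12.98) in the cells with both and 17.01 (14.2 to 20.3) in those without Pax7. In the 1931 Pax7 cells without a Dcn UMI, Cebpb was at 205 CPM, Fosl1 at 28.3 and Atf3 at 10.5. Proliferation was a further axis: Pax7 cells with no UMI of the cycling gene Mki67 held Cebpb at 383 CPM, Fosl1 at 53.6, Fosb at 30.4 and Jun at 579, and those with one held 172, 25.1, 14.0 and 438. The cycling cells were deeper, with a median of 22221 against 15673 UMIs. In MEF cells Cebpb was again lower with Mki67, at 240 CPM without and 170 with it, but Jun had the other order, at 67.6 and 86.3 CPM, as had Fosl1, at 9.47 and 12.3.

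To compare shares of cells, every cell was thinned to 5000 UMIs, which left out 284 MEF cells and 0 iMPC cells. A Jun UMI was found in 25.6% of MEF cells (24.4% to 26.7%), 82.9% of Pax7, 71.3% of Myog, 62.4% of Ckm and 93.1% of Dcn cells. Without thinning these values rose to 52.8%, 97.5%, 95.2%, 96.4% and 99.5%, and at neither depth do they give the share of expressing cells. A Runx1 UMI was found in 12.7% of MEF cells and 47.4% to 52.6% of the 4 iMPC groups. For Fosl1 the shares were 4.74% in MEF, 15.2% in Pax7, 4.002% in Myog, 1.25% in Ckm and 42.1% in Dcn cells. For Atf3 they were 0.139% in MEF cells (0.06% to 0.274%) and 18.5% in Ckm cells. Jund and Cebpb were the only 2 of the 10 genes found in a smaller share of iMPC than of MEF cells, at 57.4% against 62.0% and 49.1% against 57.6%. No cell group here is known to lack these genes, so a background share could not be set apart from expression.

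**Figure D5:**
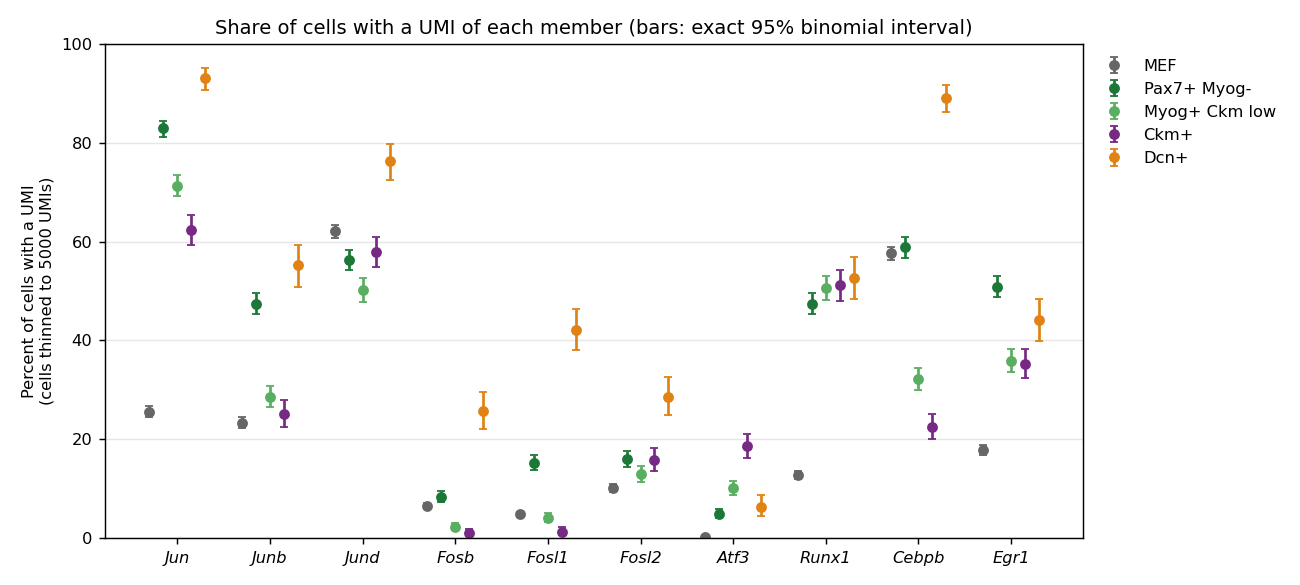
Percent of cells with a UMI of each gene after thinning to 5000 UMIs per cell, in MEF cells and the 4 iMPC groups, with exact 95% binomial intervals. Jun, Junb, Fosl2, Atf3, Runx1 and Egr1 are found in a larger share of cells of every iMPC group than of MEF. For Junb the intervals of the Ckm group and MEF overlap. The Dcn group is highest for 8 of the 10 genes, all but Atf3 and Egr1.

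At this depth MEF cells held UMIs of a median of 2 of the 10 genes, iMPC cells of 4 and Dcn cells of 5. Cells with none of the 10 made up 10.4% of MEF and 2.02% of iMPC cells. Pairs of the 10 genes were found together in more cells than independence would give for 41 of 45 pairs in MEF cells and 40 of 45 in the Pax7 group. Most of these log2 odds ratios were small, with medians of 0.39 and 0.37. In the Pax7 group the largest was that of Fosl1 with Cebpb, at 1.67, from 264 cells with both against 195 by independence. Fosl1 and Atf3 were found together in 7 Pax7 cells against 15.9 by independence. These values describe cells that share a library. The share of other gene pairs found together more often than by independence is not given here. The Pax7 group was also mixed: Fosl1 and Cebpb stood at 119 and 784 CPM in its 110 Dcn cells. In its 1931 cells without a Dcn UMI they stood at 28.3 and 205 CPM. What part this mixture had in the odds ratios was not tested.

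Trypsin treatment can raise several of these genes, so 35 other genes known to respond to dissociation were read beside them. They summed to 6273 CPM in MEF cells, 6576 in iMPC cells, 6503 in the Pax7 group, 6628 in the Myog group, 6302 in the Ckm group and 7607 in the Dcn group. Past 2-fold, 9 of the 34 tested were higher and 3 lower, against 14.8% and 21.5% of all tested genes, and the median log2 ratio of iMPC to MEF was 0.32, against -0.17 over all. The list thus leaned the same way as the 10 factors, toward iMPC. The largest differences were those of Trib1 (2.64), Errfi1 (2.50), a brake on growth factor receptors, and Socs3 (2.14), a brake on cytokine signals. Klf4 (-2.24), Klf2 (-1.99) and Ccn1 (-1.33) were lower. The Dcn group stood highest in the sum of the list, as it did for the levels of 7 of the 10 factors. Against MEF cells, 15 of the 35 list genes were higher there past 2-fold (13.0% of all tested genes) and 3 lower (12.9%). Their median log2 ratio in that group was 0.65, against -0.10 over all genes tested. What part dissociation had in these levels was not tested. In only those cells at or under the joint median of 31 UMIs of the list per 5000, the log2 ratio of iMPC to MEF was 2.53 for Jun, 2.41 for Runx1, 1.69 for Egr1, 1.19 for Fosl1 and 6.44 for Atf3. In the same cells the Dcn group stood at 3.41 for Jun, 3.28 for Fosl1 and 1.76 for Fosb. All 5 genes above 2-fold in the whole culture thus remained so in cells with a low sum, while the time from trypsin to capture in each culture is not given.

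Other genes of the pathway were read from lists of known partners, relatives and targets. Between iMPC and MEF, 14.8% of all tested genes were higher past 2-fold and 21.5% lower. Of 7 tested AP-1 relatives from a list of 12, Fos was higher in iMPC (1.81), and Mafk (-1.63) and Jdp2 (-1.25), a repressor that pairs with Jun, were lower. Among Egr genes Egr3 was higher (4.58; 13.1 against 0.551 CPM), and Nab1, a corepressor of Egr proteins, was lower (-1.66). Of the C/EBP list 1 of 3 tested genes, Ddit3 (-1.32), a stress-induced relative, was lower. The Runx partners held no gene past 2-fold among 2 tested. Of 11 kinases and phosphatases that act on the pathway, Dusp4 (1.15) and Dusp6 (1.04), phosphatases that are induced by ERK signalling, were higher and 0 were lower. Of the 6 Srf genes and cofactors, which act on Fos and Egr1 transcription in either direction, Elk3 (-2.52) and Mrtfa (-1.67) were lower.

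Known AP-1 targets went both ways against MEF cells in the whole culture and in each iMPC group. Of 16 tested, 4 were higher and 5 lower in iMPC, against 14.8% and 21.5% of all tested genes. Their median was -0.29 on the log2 scale, against -0.17 over all genes tested. Areg, a growth factor, stood at 145 against 3.15 CPM (5.53), the protease gene Mmp9 at 15.6 against 0.644 (4.60), and Vegfa at 94.7 against 12.4 (2.94). Among those lower in iMPC were the chemokine gene Ccl2 (-4.56) and the collagen crosslinker gene Lox (-3.64). In the Pax7 group 5 of 16 tested targets were higher than in MEF cells (14.8% of all tested genes) and 5 lower (19.4%). Their median was 0.01, against -0.09 over all genes tested. In the Myog group 2 of 15 were higher (15.9%) and 9 lower (26.9%), with a median of -1.25, against -0.21 over all. In the Dcn group 12 of 18 were higher than in MEF cells (13.0%) and 3 lower (12.9%), with a median of 1.75, against -0.10 over all genes tested. Spp1, a secreted matrix protein gene, reached 12996 CPM there against 443 in MEF cells. In the Ckm group 3 of 15 were higher (13.9%) and 10 lower (35.2%) than in MEF cells, with a median of -2.47, against -0.54 over all genes tested. Ptgs2, the inducible prostaglandin synthase gene, stood at 450 CPM in the Dcn group, 54.2 in MEF cells and 9.37 in the Ckm group.

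For each of the 10 genes the 2 genes with the nearest profile were taken over the 5 groups, as the Euclidean distance between centred log2(CPM + 1) values among 9259 genes. With 5 points and many genes, close matches are easily found, so these are descriptions. Jun was nearest to Rundc3a (0.29) and Vegfa (0.37), Junb to Rab8b (0.17) and Hspa1a (0.21), and Jund to Myo6 (0.21). Fosb was nearest to the chemokine gene Cxcl1 (0.32) and to Adamts2 (0.34), Fosl1 to Cdh6 (0.45) and Camk2n1 (0.53), and Fosl2 to Slc25a37 and Tnfrsf21 (0.14 each). Atf3 was nearest to Gprc5c (0.38) and to Gadd45a (0.60), a stress-induced growth arrest gene that stood at 464 CPM in the Ckm group and 17.3 in MEF cells. Runx1 was nearest to Clybl (0.41) and Slc4a7 (0.48), Cebpb to Klf7 (0.22) and Serpinf1 (0.25), and Egr1 to Cxxc5 (0.22) and Ttll7 (0.25).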

How the data were processed

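The authors deposited 1 matrix of raw UMI counts for each library. Per the file headers they were written by Cell Ranger 4, and per the submitters' processing notes Cell Ranger 4.0, Seurat 3.2.3 and the build GRCm38.p6 were used. Annotation and cell selection are not given in the sources used here. The iMPC matrix lists 6794880 barcodes with 282903287 UMIs and the MEF matrix 6113 with 118541302. The lowest kept MEF cell held 160 UMIs, and 661 of the kept MEF cells lay under the iMPC minimum. Kept cells of the libraries share 16 barcodes. The 8036 UMI minimum is 10% of the 99th percentile of the top 10000 barcodes. Of the MEF matrix, 24 genes absent from the other were dropped.

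Doublets were kept, and cells marked by Scrublet were removed as an alternative (418 in iMPC; in MEF its threshold marked 1 cell, so the 292 highest scores were taken). Ratios have exact conditional, sums exact Poisson and shares exact binomial (Clopper-Pearson) intervals at 95%. Odds ratios had 0.5 added to each cell of the table. Python 3.11.15, numpy 2.4.6, scipy 1.17.1, pandas 2.3.3 and scanpy 1.11.5 were used, and ratios, thinning and odds ratios were tested on simulated data. Positions are from GENCODE M21 (GRCm38). The members and lists were chosen with earlier results of these data known. Named genes were all members, for each list the 3 largest ratios in each direction past 2-fold between iMPC and MEF, and 2 nearest genes for each member; 2 genes that this rule names are not reported here. Other named genes, among them Fos levels by group, Spp1, Ptgs2 and markers, were chosen after their values were seen. All 35 dissociation genes matched, some by synonym.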

Additional observations from a re-analysis of the deposited data

Results flagged for a closer look

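Transcripts of these factors were also found in iMPC barcodes that entered no comparison. In barcodes of 1 to 100 UMIs, which hold no cell, Jun stood at 194 CPM, where a count of 0 would allow 0.342 CPM. That is 0.482 times its level in the kept iMPC cells. In the 191 barcodes left out for over 20% mitochondrial UMIs, Atf3 stood at 44.6 CPM (37.7 to 52.4), where a count of 0 would allow 0.898 CPM, against 24.0 CPM in the kept cells. The same barcodes held Jun at 203 CPM and Fosl1 at 6.59 CPM, against 402 and 25.4 CPM in the kept cells.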

How the results depend on the processing

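Each culture was 1 library, so nothing here has a replicate check, and depth limits chiefly Atf3 in MEF cells (50 UMIs) and Fosb and Fosl1 in the Ckm group (103 and 180 UMIs). No paired analysis was possible because each group holds 1 library. Of the alternatives to counts and sums, 262 left the value the same, 16 moved it and 0 reversed it; of those to single log2 ratios 608 stayed within the counting interval, 352 moved and 0 reversed a difference past 2-fold. Applying the iMPC minimum to MEF cells was chosen after seeing the data. Causes of the other shifts were not tested, and counts under another threshold for a call move by construction.
With at least 50 CPM for a call, 3 genes were higher in iMPC than MEF, 1 was lower in the Myog and 1 in the Ckm group than in MEF, 0 were higher in the Myog and 0 in the Ckm group than in the Pax7 group, and 1 and 3 were lower. At 3-fold, 0 were lower in the Myog group than in MEF, 0 higher in the Myog than in the Pax7 group, 3 lower in the Ckm and 1 higher in the Dcn group than in the Pax7 group. At 1.5-fold, 6 were lower in the Myog and 7 higher in the Dcn group than in the Pax7 group. Scaled by the median of gene ratios, 3 were lower in the Ckm than in the Pax7 group. The shares of all genes at these other settings are not given here, so these counts cannot be set against a background. The log2 ratio of the summed dissociation genes, 0.07, became 0.22 when mitochondrial and ribosomal protein genes were left out of the totals and 0.10 when CPM was averaged cell by cell.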
